A study of Mus musculus with 6 samples.

Results

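Rn7sk and 7 long noncoding RNAs that are known to act largely in the nucleus (Malat1, Neat1, Meg3, Rian, Mirg, Miat and Snhg11) were followed by gene symbol through 6 RNA-seq libraries of mouse prefrontal cortex. They are 8 of the 54134 entries counted in each library, and all 8 passed the filter on low counts. The tissue came from mice aged 6 to 8 weeks in 3 groups of 2 libraries, described as biological duplicates. Wild-type controls, a cross of C57BL/6 and C3H, received vehicle. Mice of the genotype Shank3 +/∆C, which carry 1 wild-type copy of the postsynaptic scaffold gene Shank3 and 1 copy with a C-terminal deletion, received either vehicle or GSK-LSD1, an inhibitor of the histone demethylase LSD1 (Kdm1a). The labels used here give no dose or duration of GSK-LSD1, and none of the groups here is wild type given GSK-LSD1. RNA was taken from whole tissue and depleted of ribosomal RNA before stranded libraries were made, so RNAs without a poly(A) tail could be counted, but the place of an RNA within the cell was not measured.

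Rn7sk is the 7SK small nuclear RNA, a transcript of RNA polymerase III that forms a particle with Larp7, Mepce and Hexim1 and holds the elongation factor P-TEFb inactive. Malat1 gathers in nuclear speckles, which store splicing factors, and its chromosomal neighbour Neat1 is the scaffold of paraspeckles. Meg3, Rian and Mirg are read from the maternal chromosome across the imprinted Dlk1-Dio3 region: Rian hosts small nucleolar RNAs and Mirg hosts microRNAs. Miat, also called Gomafu, is a neuronal nuclear RNA that binds splicing factors, and Snhg11 is a small nucleolar RNA host gene found in neurons.

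The loci lie on 5 chromosomes of GRCm38, in the GENCODE annotation. Rn7sk is a single exon of 331 bases on the minus strand at chr9:78175303-78175633. Malat1 (chr19:5795690-5802672) and Neat1 (chr19:5824708-5845478) are both on the minus strand of chromosome 19, with exons covering 6983 and 20771 bases. The 3 imprinted RNAs follow each other on the plus strand of chromosome 12: Meg3 at chr12:109541001-109571726, Rian at chr12:109603940-109661716 and Mirg at chr12:109729764-109749460, with 18089, 18234 and 7292 exonic bases. Miat lies at chr5:112213228-112229395 on the minus strand (9293 exonic bases). Snhg11 lies at chr2:158375638-158386145 on the plus strand (8521 exonic bases) and is annotated as protein-coding, unlike the others.

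The first 110 bases of Rn7sk (chr9:78175524-78175633, minus strand, GRCm38) are shown because they hold the hairpin by which the particle takes up Hexim1. Capitals mark every GATC, the DNA spelling of the repeat known from the Hexim1 contact. These 3 copies are all that the 331-base transcript holds, and which of them touch Hexim1 was not measured. The last 40 bases (chr9:78175303-78175342) are shown for the closing run of T, in capitals, at which RNA polymerase III stops.
Rn7sk, first bases: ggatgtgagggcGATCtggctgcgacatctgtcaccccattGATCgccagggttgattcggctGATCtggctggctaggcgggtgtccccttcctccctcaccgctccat
Rn7sk, last bases: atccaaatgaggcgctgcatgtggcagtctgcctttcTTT

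Promoter windows from RefSeq (GRCm38.p6), from 250 bases before to 50 bases after a start, were matched for 6 of the 8 members. Those that held a motif searched for, of Malat1 and Meg3, are printed. A link between these motifs and the levels was not tested. Capitals mark TGACGTCA, the cAMP response element, its 5-letter part TGACG, and the TATA motif TATAAA, searched on both strands, so that CGTCA is TGACG on the other strand and TGACG overlaps TGACGTCA. The Meg3 window (chr12:109540746-109541045, plus strand) holds TGACGTCA with its first base 57 bases before the start, followed by TATAAA at 25 bases before it and, on the other strand, at 29. The Malat1 window (chr19:5802623-5802922, minus strand) holds TGACG 45 bases before the start on its own strand, and 154 and 3 bases before it on the other. Of 32851 RefSeq promoter windows of 300 bases, 1.79% held TGACGTCA, 20.8% TGACG and 13.6% TATAAA. The other matched windows, those of Rian, Mirg, Miat, Snhg11 and a second start of Meg3, held none of the motifs in these letters.
Meg3: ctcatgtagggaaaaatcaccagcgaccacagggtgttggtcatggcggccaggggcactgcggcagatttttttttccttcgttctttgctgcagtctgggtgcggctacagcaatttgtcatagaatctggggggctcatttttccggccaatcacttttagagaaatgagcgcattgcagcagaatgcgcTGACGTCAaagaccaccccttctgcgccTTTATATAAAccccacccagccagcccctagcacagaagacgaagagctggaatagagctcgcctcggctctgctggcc
Malat1: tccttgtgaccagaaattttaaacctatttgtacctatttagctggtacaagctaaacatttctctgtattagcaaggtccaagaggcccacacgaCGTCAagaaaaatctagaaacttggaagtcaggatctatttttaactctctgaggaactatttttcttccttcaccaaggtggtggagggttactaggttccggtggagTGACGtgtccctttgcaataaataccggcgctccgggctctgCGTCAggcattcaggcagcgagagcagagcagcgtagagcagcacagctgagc

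The libraries held 14133834 to 28646960 counted reads, and the 8 RNAs together took 3.01% to 4.46% of them. The unit of level is CPM, a read count relative to the TMM-scaled library size, and a gene passed where edgeR's quasi-likelihood test with Benjamini-Hochberg adjustment over all 18705 genes tested gave an adjusted p under 0.05. No member passed in any of the 3 comparisons. In Shank3 vehicle against wild type 0 of 8 passed, where 1.27% of all tested genes did. In GSK-LSD1 against Shank3 vehicle it was 0 of 8 beside 0.107%, and in GSK-LSD1 against wild type 0 of 8 beside 2.62%. At an unadjusted p under 0.05 the members numbered 1, 0 and 1, Neat1 each time, beside 14%, 5.70% and 15.7% of all genes. DESeq2 called 0, 0 and 1 member, again Neat1, for which it gave no adjusted p in Shank3 vehicle against wild type, and limma-voom called none. Each of the 3 comparisons shares a group with each of the others.

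**Figure D1:**
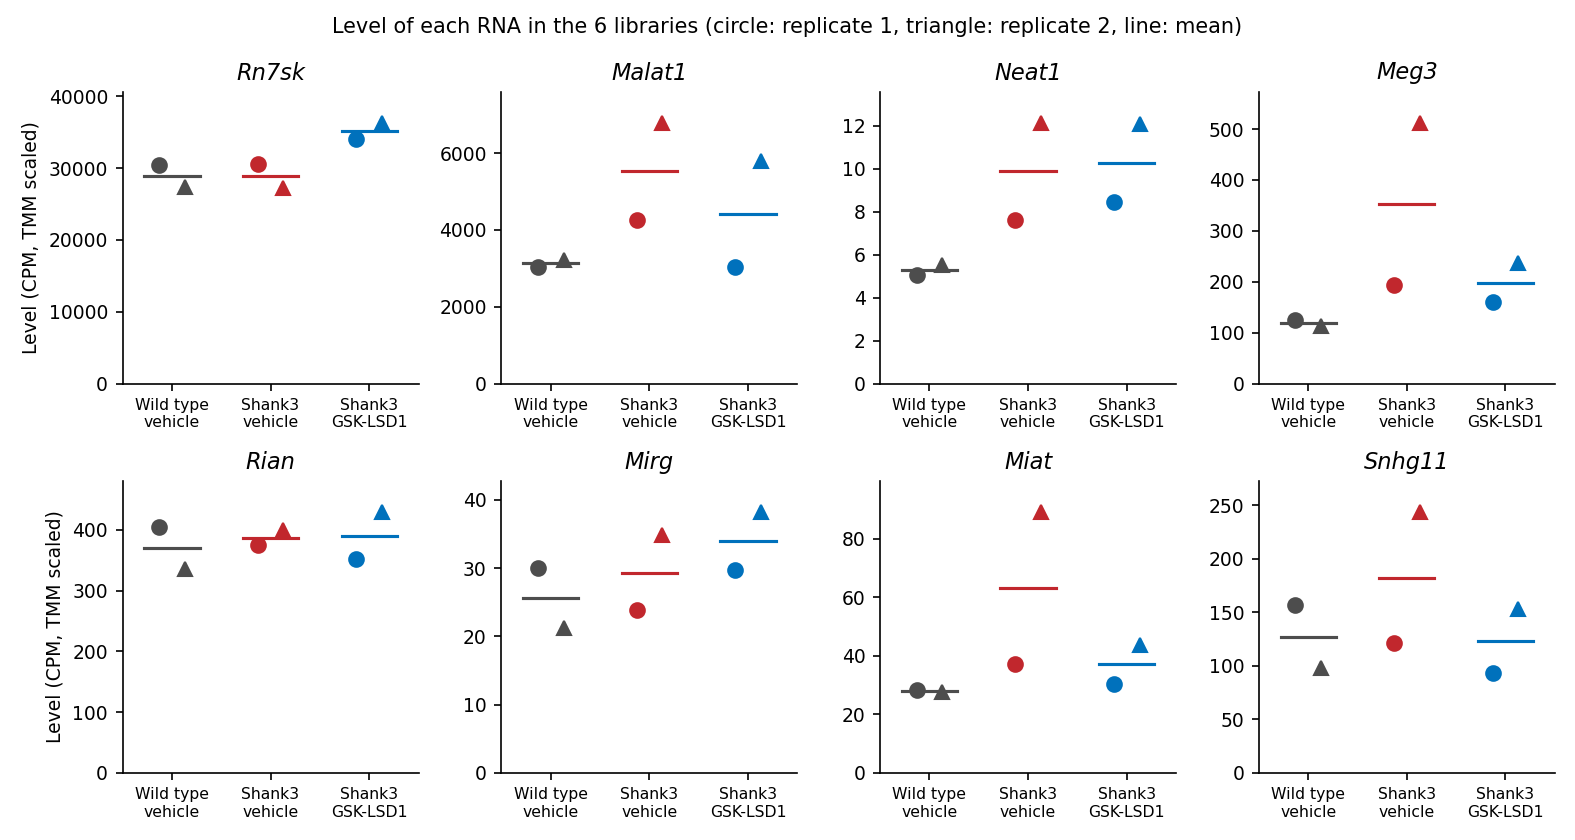
Level of each RNA (vertical axis, CPM after TMM scaling, from 0) in the 3 groups, with a circle for replicate 1, a triangle for replicate 2 and a line for the mean. The second Shank3 vehicle library is the highest for Malat1, Neat1, Meg3, Miat and Snhg11, and the second GSK-LSD1 library for Rn7sk, Rian and Mirg. For Neat1 these 2 libraries are nearly level, at 12.11 and 12.06 CPM.

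Per kilobase of exon, the RNAs spanned several orders of magnitude. Rn7sk averaged 93589 RPKM (CPM divided by kilobases of exon) over the 6 libraries, and Malat1 624 RPKM. Rian followed at 21.0 RPKM, Snhg11 at 16.9 and Meg3 at 12.4, and these neighbours overlapped, with library ranges of 18.4 to 23.5, 10.97 to 28.5 and 6.28 to 28.3 RPKM. Miat at 4.60 RPKM and Mirg at 4.06 RPKM overlapped as well (2.97 to 9.58 and 2.91 to 5.23 RPKM). Neat1 was the lowest at 0.408 RPKM, and its range of 0.244 to 0.583 RPKM touched no other. Rn7sk, Malat1 and Neat1 were thus apart from every other member, Rian and Snhg11 lay wholly above Miat and Mirg, and Meg3 lay wholly above Mirg while its range overlapped that of Miat. RPKM of an RNA as short as Rn7sk also carries the fragment length chosen at library preparation, and near-identical copies of 7SK in the genome can share its reads. For counting error alone, the 95% Wilson interval of the share reached at most 0.290% of the value to each side of its centre for Rn7sk. That reach was at most 0.929% for Malat1, but up to 22.9% for Neat1, counted with 74 to 267 reads. These intervals cover counting error only.

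Rn7sk was the most abundant entry in all 6 libraries. It took 2.92% and 2.64% of counted reads in the wild-type libraries, 3.06% and 2.80% in Shank3 vehicle and 3.41% and 3.76% in GSK-LSD1. As levels these were 30394 and 27299.8 CPM in wild type, 30619 and 27239 CPM in Shank3 vehicle, and 34066 and 36249 CPM in GSK-LSD1. Both GSK-LSD1 libraries thus lay above all 4 vehicle libraries, while the vehicle groups overlapped, with the wild-type pair lying between the Shank3 vehicle pair. The mean share was 2.78% ± 0.201 (SD, n = 2) in wild type, 2.93% ± 0.191 in Shank3 vehicle and 3.59% ± 0.248 in GSK-LSD1. The fitted difference between Shank3 vehicle and wild type was 0.00 on the log2 scale (SE 0.14, 95% interval -0.29 to 0.30, edgeR adjusted p = 0.996), and its sign turned with the scaling, from 0.00411 with TMM to -0.00038 with RLE. GSK-LSD1 lay higher than Shank3 vehicle by a log2 difference of 0.28 ± 0.14 (SE, edgeR adjusted p = 0.907, unadjusted p = 0.0598, 95% interval -0.01 to 0.58). Against wild type the difference was 0.29 ± 0.14 (SE, edgeR adjusted p = 0.337). Neither passed the test. Across 13809 genes, Pearson's r between a library's log2 deviation from the mean of all 6 and the log2 exonic length was 0.152 and 0.152 in the wild-type libraries, -0.130 and 0.0941 in Shank3 vehicle, and -0.157 and -0.132 in GSK-LSD1. It was thus lowest in both GSK-LSD1 libraries, with Shank3 vehicle library 1 close to them, and Rn7sk is the shortest member. The part of this trend in the level of Rn7sk was not tested. Groups were apart in the same direction for 17% of all tested genes in the comparison with Shank3 vehicle and for 23.5% in that with wild type.

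Other small structured RNAs, the class nearest to Rn7sk in make-up, were measured unevenly. Of a list of 23 (spliceosomal, small Cajal body, Y and vault RNAs, and others), 14 could be tested, and 0 rose and 0 fell in each comparison (1, 1 and 0 at an unadjusted p under 0.05). Their median log2 difference was 0.08, 0.18 and 0.23 in Shank3 vehicle against wild type, GSK-LSD1 against Shank3 vehicle, and GSK-LSD1 against wild type, beside 0.02, -0.00 and 0.02 over all tested genes. Rmrp, the RNA of the mitochondrial RNA processing ribonuclease, had 0 reads in all 6 libraries, and Rpph1, the RNA of ribonuclease P, had 1 read in all. Rnu12, the U12 RNA of the minor spliceosome, stood at 1.63 CPM in wild type, 3.26 CPM in Shank3 vehicle and 1.89 CPM in GSK-LSD1 (edgeR adjusted p = 0.175 against wild type and 0.840 between the Shank3 groups).

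The proteins that bind 7SK or the factor it holds were followed with 10 genes reported here. In Shank3 vehicle against wild type and in GSK-LSD1 against Shank3 vehicle, 0 of these 10 rose and 0 fell by edgeR's test (2 and 2 at an unadjusted p under 0.05), with medians of -0.09 and 0.00. Ell2, an elongation factor of the super elongation complex, stood at 25.1 CPM in wild type, 31.8 CPM in Shank3 vehicle and 23.3 CPM in GSK-LSD1 (edgeR adjusted p = 0.247 for Shank3 vehicle against wild type and 0.468 between the Shank3 groups). Mepce, the 7SK capping enzyme, stood at 31.0 CPM in Shank3 vehicle and 37.5 CPM in GSK-LSD1 (adjusted p = 0.835). Cdk9, the kinase of P-TEFb, stood at 46.3 CPM in wild type, 38.9 CPM in Shank3 vehicle and 38.3 CPM in GSK-LSD1 (adjusted p = 0.322 and 0.251 against wild type).

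By count Malat1 ranked between 2 and 5 among all entries. It made up 0.292% and 0.311% of reads in the wild-type libraries, 0.428% and 0.696% in Shank3 vehicle, and 0.303% and 0.603% in GSK-LSD1. The levels were 3037 and 3219.8 CPM, then 4271.5 and 6780 CPM, then 3028 and 5806 CPM. Wild type was tight, and both Shank3 vehicle libraries lay above it, but the GSK-LSD1 libraries differed 1.92-fold from each other and enclosed the wild-type pair. The log2 difference was 0.82 ± 0.41 (SE, edgeR adjusted p = 0.493) in Shank3 vehicle against wild type, -0.32 ± 0.41 (SE, adjusted p = 0.995) in GSK-LSD1 against Shank3 vehicle, and 0.50 ± 0.41 (SE, adjusted p = 0.666) in GSK-LSD1 against wild type. Without Shank3 vehicle library 2 the first of these was 0.45, and without GSK-LSD1 library 2 the last was -0.05. Gm37376, which is annotated on the opposite strand inside Malat1, had 0 reads in all libraries.

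Neat1, next to Malat1 on the chromosome, came closest to the threshold. Its 2 wild-type libraries held 74 and 152 reads, those of Shank3 vehicle 166 and 267, and those of GSK-LSD1 199 and 177. Scaled to depth these were 5.07 and 5.49 CPM, 7.63 and 12.1 CPM, and 8.44 and 12.1 CPM, so that all 4 mutant libraries, treated or not, lay above both wild-type libraries. Neat1 stood higher in Shank3 vehicle than in wild type by a log2 difference of 0.90 ± 0.24 (SE, edgeR adjusted p = 0.0805, unadjusted p = 0.0019). In GSK-LSD1 the difference from wild type was 0.94 ± 0.25 (SE, adjusted p = 0.0528, unadjusted p = 0.00143). Between the Shank3 groups it was 0.04 ± 0.23 (SE, adjusted p = 0.999, 95% interval -0.45 to 0.54). The comparison of GSK-LSD1 with wild type passed in 7 of 14 alternatives, with adjusted p-values from 0.00176 to 0.387, and that of Shank3 vehicle with wild type in 3 of 14, from 0.00341 to 0.623 where an adjusted p was given. These counts include settings that leave 1 library in a compared group, whose spread is then taken from the others. With both compared groups whole, Shank3 vehicle against wild type passed without GSK-LSD1 library 1 (0.89, adjusted p = 0.0297) and without library 2 (0.89, adjusted p = 0.0293). Likewise, GSK-LSD1 against wild type passed without Shank3 vehicle library 1 (adjusted p = 0.0338) and without library 2 (adjusted p = 0.0266). With 1 library left in the group, GSK-LSD1 against wild type was 1.18 without GSK-LSD1 library 1. Shank3 vehicle against wild type was 0.53 without Shank3 vehicle library 2. The Malat1 to Neat1 ratio of counts was 599.5 and 586 in the wild-type libraries, 560 and 560 in Shank3 vehicle, and 359 and 481 in GSK-LSD1.

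**Figure D2:**
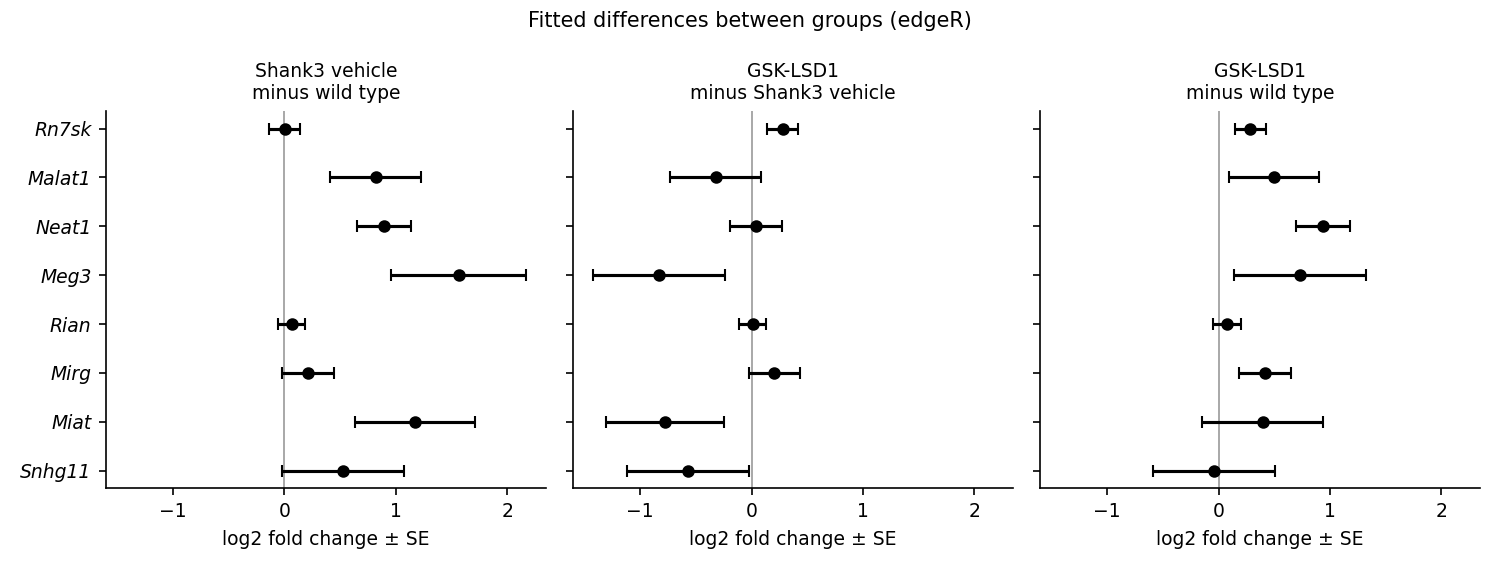
Fitted log2 fold change (horizontal axis) of each of the 8 RNAs in the 3 comparisons, with bars of 1 SE from edgeR. Rn7sk and Rian lie within 0.10 of 0 in Shank3 vehicle against wild type, and Meg3 reaches 1.56 with the widest bar, an SE of 0.60.

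Groups did not overlap, with the first group higher, for 4 of 8 members in Shank3 vehicle against wild type (Malat1, Neat1, Meg3 and Miat), where 23.1% of all tested genes did so. In GSK-LSD1 against wild type it was also 4 of 8 (Rn7sk, Neat1, Meg3 and Miat), beside 23.5%, and in GSK-LSD1 against Shank3 vehicle 1 of 8 (Rn7sk), beside 17%. No member was lower without overlap, as 23.1%, 22.4% and 16.6% of all tested genes were in these comparisons in the same order. All 8 fitted differences were positive in Shank3 vehicle against wild type under TMM, though that of Rn7sk turned negative under RLE scaling, and the median was 0.67 beside 0.02 over all genes. In GSK-LSD1 against Shank3 vehicle 4 of 8 were positive (median -0.16 beside -0.00), and in GSK-LSD1 against wild type 7 of 8 (median 0.40 beside 0.02). In bulk tissue, fewer cells of a type and less RNA per cell cannot be told apart.

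Proteins of the bodies that Malat1 and Neat1 are known to occupy mostly did not pass the test. Of 18 nuclear speckle and splicing proteins 1 rose in Shank3 vehicle against wild type (Srsf7), 0 of 18 passed in GSK-LSD1 against Shank3 vehicle, and 1 fell in GSK-LSD1 against wild type (Srrm2). At an unadjusted p under 0.05 they numbered 7, 3 and 6 of 18, beside the shares of 14%, 5.70% and 15.7% of all genes. The medians were 0.02, -0.08 and -0.03. Srsf7, an SR splicing factor, read 39.0 and 40.6 CPM in wild type and 55.1 and 53.7 CPM in Shank3 vehicle, a log2 fold change of 0.45 ± 0.11 (SE, edgeR adjusted p = 0.0486). It did not pass without any 1 of those 4 libraries, with values of 0.42 to 0.48 and adjusted p-values of 0.0895 to 0.516, and it passed in 7 of 14 alternatives in all. Srrm2, a core protein of speckles, read 484 and 409 CPM in wild type, 325 and 335 CPM in Shank3 vehicle and 281 and 340 CPM in GSK-LSD1. It fell by 0.53 ± 0.12 on the log2 scale (SE, adjusted p = 0.0258) in GSK-LSD1 against wild type, but not without wild-type library 1 (-0.40, adjusted p = 0.402) or GSK-LSD1 library 1 (-0.40, adjusted p = 0.108). With library size alone as the scaling, Srrm2 (adjusted p = 0.0790) and Srsf7 (0.0599) missed the threshold.

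Among 14 paraspeckle proteins reported here 0 passed edgeR's test in Shank3 vehicle against wild type or in GSK-LSD1 against Shank3 vehicle (1 and 1 at an unadjusted p under 0.05), with medians of 0.06 and -0.06. The 1 was Hnrnpa1 both times, an RNA-binding protein, which stood at 14.1 CPM in wild type, 21.3 CPM in Shank3 vehicle and 15.9 CPM in GSK-LSD1 (edgeR adjusted p = 0.0615 against wild type and 0.712 between the Shank3 groups). Nudt21, a cleavage factor of RNA 3-prime ends, stood at 48.5 CPM in wild type and 56.7 CPM in Shank3 vehicle (adjusted p = 0.384).

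Meg3, at the start of the imprinted cluster, had the widest spread of the 8 RNAs. Its libraries read 125 and 114 CPM in wild type, 194 and 511 CPM in Shank3 vehicle, and 159 and 238 CPM in GSK-LSD1. The highest library thus held 4.50 times the level of the lowest, and the Shank3 vehicle pair differed 2.64-fold. Both mutant groups lay above both wild-type libraries. The log2 difference from wild type was 1.56 ± 0.60 (SE, edgeR adjusted p = 0.415) in Shank3 vehicle and 0.73 ± 0.60 (SE, adjusted p = 0.675) in GSK-LSD1, and GSK-LSD1 against Shank3 vehicle gave -0.83 ± 0.59 (SE, adjusted p = 0.988). Single libraries decided these values. Without Shank3 vehicle library 2 the difference from wild type was 0.70 (adjusted p = 0.232) and that of GSK-LSD1 from Shank3 vehicle 0.03. Without Shank3 vehicle library 1, where the group rests on 1 library whose spread is taken from the others, they were 2.09 (adjusted p = 5.72e-04) and -1.36 (adjusted p = 0.0201). GSK-LSD1 against wild type passed without either Shank3 vehicle library, at 0.73 both times (adjusted p = 0.0413 without library 1 and 0.0365 without library 2).

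Rian, read from the same strand 63 kilobases further on, was the most even of the 8. It stood at 405 and 336 CPM in wild type, 374 and 400.5 CPM in Shank3 vehicle, and 352 and 429 CPM in GSK-LSD1, a range of 1.28-fold. The groups overlapped in every comparison. Its log2 difference was 0.06 ± 0.12 (SE, edgeR adjusted p = 0.880) in Shank3 vehicle against wild type with a 95% interval of -0.20 to 0.32. It was 0.01 ± 0.12 (SE, adjusted p = 0.999, interval -0.25 to 0.27) in GSK-LSD1 against Shank3 vehicle, and 0.07 ± 0.12 (SE, adjusted p = 0.837) in GSK-LSD1 against wild type. The count of Meg3 per count of Rian was 0.309 and 0.338 in the wild-type libraries, 0.518 and 1.28 in Shank3 vehicle, and 0.452 and 0.555 in GSK-LSD1, so that all 4 mutant libraries were above the wild-type pair. This ratio is a description and was given no test.

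Mirg, at the far end, read 30.0 and 21.2 CPM in wild type, 23.9 and 34.8 CPM in Shank3 vehicle, and 29.8 and 38.2 CPM in GSK-LSD1. Every group overlapped the next. The log2 difference was 0.21 ± 0.23 (SE, edgeR adjusted p = 0.780), 0.20 ± 0.23 (SE, adjusted p = 0.992) and 0.41 ± 0.23 (SE, adjusted p = 0.451) in Shank3 vehicle against wild type, GSK-LSD1 against Shank3 vehicle and GSK-LSD1 against wild type. The 14 microRNA hairpins within Mirg gave 226 reads in all over the 6 libraries, where Mirg itself gave 3575, and 1 of them, Mir541 with 62 reads, was abundant enough to test. These libraries count long RNA, so such reads are from hairpins or their precursors and do not measure mature microRNAs. The hairpins carry 26 mature RefSeq sequences with 25 seeds, and 1 seed, GGUUGCC, is shared. The 2 that share it and the 5-prime product of the tested hairpin are shown, with the seed (bases 2 to 8) in capitals.
mmu-miR-453: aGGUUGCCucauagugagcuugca
mmu-miR-496a-5p: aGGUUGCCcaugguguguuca
mmu-miR-541-5p: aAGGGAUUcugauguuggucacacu

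**Figure D3:**
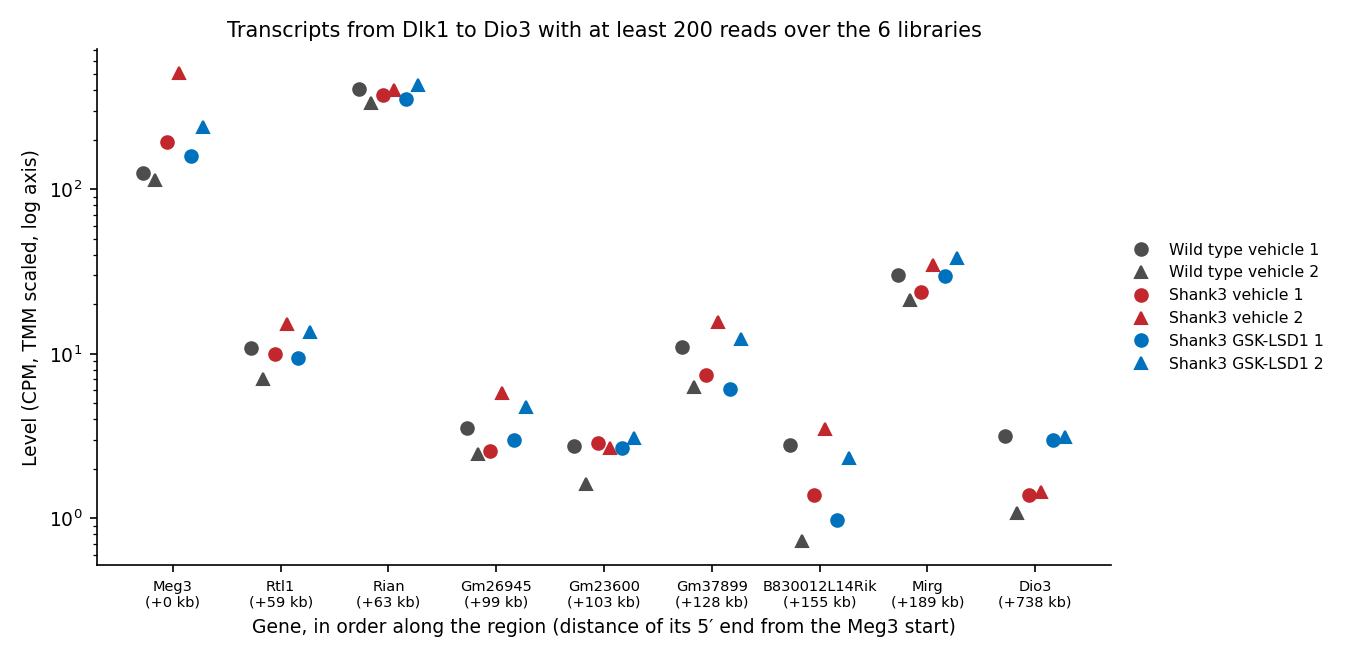
Level (vertical axis, CPM after TMM scaling, log axis) of the transcripts between Dlk1 and Dio3 with at least 200 reads in all, in order of their distance from the Meg3 start, with 1 symbol for each of the 6 libraries. Meg3 spans 114 to 511 CPM, while Rian spans 336 to 429 CPM.

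Of 117 annotated entries between Dlk1 and Dio3, 22 were tested. The highest level was in Shank3 vehicle library 2 for 9 of the 22, beside 16.7% of all tested genes and 35.7% of tested long noncoding genes. With DESeq2 0 of the 22 passed in any comparison, and with edgeR 0 as well (1, 1 and 0 at an unadjusted p under 0.05). The 1 in Shank3 vehicle against wild type, named after its values were seen, was Dio3os, an antisense neighbour of Dio3 with 3 to 13 reads per library (edgeR adjusted p = 0.348). Rtl1, a retrotransposon-derived gene read on the opposite strand between Meg3 and Rian, stood at 10.8 and 7.01 CPM in wild type, 10.02 and 15.1 CPM in Shank3 vehicle, and 9.45 and 13.6 CPM in GSK-LSD1. The groups overlapped for Rtl1 (edgeR adjusted p = 0.408 for Shank3 vehicle against wild type). Of the 7 protein-coding genes in and beside the region, 0 passed in any comparison (0, 1 and 0 at an unadjusted p under 0.05). The 1 in GSK-LSD1 against Shank3 vehicle was Dio3, which encodes the deiodinase that inactivates thyroid hormone, at 1.42 CPM in Shank3 vehicle and 3.07 CPM in GSK-LSD1 (adjusted p = 0.782). Dlk1, a ligand related to Notch ligands, stood at 0.847 and 1.85 CPM in the same groups (adjusted p = 0.895).

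Miat read 28.5 and 27.6 CPM in wild type, 37.1 and 89.0 CPM in Shank3 vehicle, and 30.5 and 43.5 CPM in GSK-LSD1. Wild type was the tightest pair of any member, and all 4 mutant libraries were above it, with Shank3 vehicle library 2 far above the rest. The log2 difference was 1.17 ± 0.54 (SE, edgeR adjusted p = 0.483) in Shank3 vehicle against wild type, -0.78 ± 0.53 (SE, adjusted p = 0.986) in GSK-LSD1 against Shank3 vehicle, and 0.39 ± 0.54 (SE, adjusted p = 0.818) in GSK-LSD1 against wild type. Without Shank3 vehicle library 2 the first was 0.41 and the second -0.01. Without Shank3 vehicle library 1 they were 1.66 and -1.27. In each of these fits the Shank3 vehicle group rested on 1 library, whose spread is taken from the others. The lincRNA Gm26953 on the opposite strand had 66 reads in all, beside 416 to 1963 reads per library for Miat.

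Snhg11 read 156 and 97.6 CPM in wild type, 121 and 243 CPM in Shank3 vehicle, and 93.4 and 153 CPM in GSK-LSD1. The pair within each group differed 1.603-fold, 2.004-fold and 1.63-fold, and all groups overlapped. The log2 difference was 0.53 ± 0.54 (SE, edgeR adjusted p = 0.785), -0.57 ± 0.55 (SE, adjusted p = 0.990) and -0.05 ± 0.55 (SE, adjusted p = 0.985) in Shank3 vehicle against wild type, GSK-LSD1 against Shank3 vehicle and GSK-LSD1 against wild type, the last turning to 0.04 with library size alone as the scaling. Of 20 other small nucleolar RNA host genes 17 were tested and 0 passed in any comparison (3, 1 and 3 at an unadjusted p under 0.05), with medians of 0.18, -0.02 and 0.28. Snhg17 stood at 2.43 CPM in wild type, 4.29 CPM in Shank3 vehicle and 4.14 CPM in GSK-LSD1 (adjusted p = 0.175 and 0.194 against wild type). Gas5, a host RNA that builds up when growth stops, stood at 48.5 CPM in wild type, 52.5 CPM in Shank3 vehicle and 59.5 CPM in GSK-LSD1 (adjusted p = 0.240 for GSK-LSD1 against wild type).

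A further list of 23 long noncoding RNAs, of which 18 were tested, also held 0 that passed (3, 1 and 3 at an unadjusted p under 0.05), with medians of 0.07, -0.07 and 0.09. Sox2ot, which overlaps the gene of the stem cell factor Sox2, stood at 7.41 CPM in wild type and 17.2 CPM in Shank3 vehicle (edgeR adjusted p = 0.194). Peg13, an imprinted RNA, stood at 348 CPM in wild type, 288 CPM in Shank3 vehicle and 276 CPM in GSK-LSD1 (adjusted p = 0.263 and 0.129 against wild type).

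The high values came from a small number of libraries. By CPM, Shank3 vehicle library 2 was the highest of the 6 for 5 of the 8 RNAs, and GSK-LSD1 library 2 for the other 3. Over all tested genes, these libraries were the highest for 16.7% and 21.1%. For Neat1 they were nearly level, at 12.11 and 12.06 CPM, or 0.71 and 0.70 above the other 5 libraries on the log2 scale. By share of reads GSK-LSD1 library 2 was the higher for Neat1, with 0.0012523% beside 0.0012425%. Against the mean of the other 5 libraries, Shank3 vehicle library 2 stood higher on the log2 scale by 1.68 for Meg3, 1.43 for Miat, 1.00 for Snhg11, 0.86 for Malat1 and 0.71 for Neat1, which are percentiles 99.6, 98.9, 96.3, 94.7 and 92.6 of all tested genes in that library. It stood at 0.31 for Mirg, 0.08 for Rian and -0.21 for Rn7sk, the last being the lowest CPM of Rn7sk in any library. The 7 long noncoding RNAs together took 0.828% of reads there, beside 0.364% and 0.369% in wild type, 0.503% in the other Shank3 vehicle library, and 0.371% and 0.698% in GSK-LSD1.

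**Figure D4:**
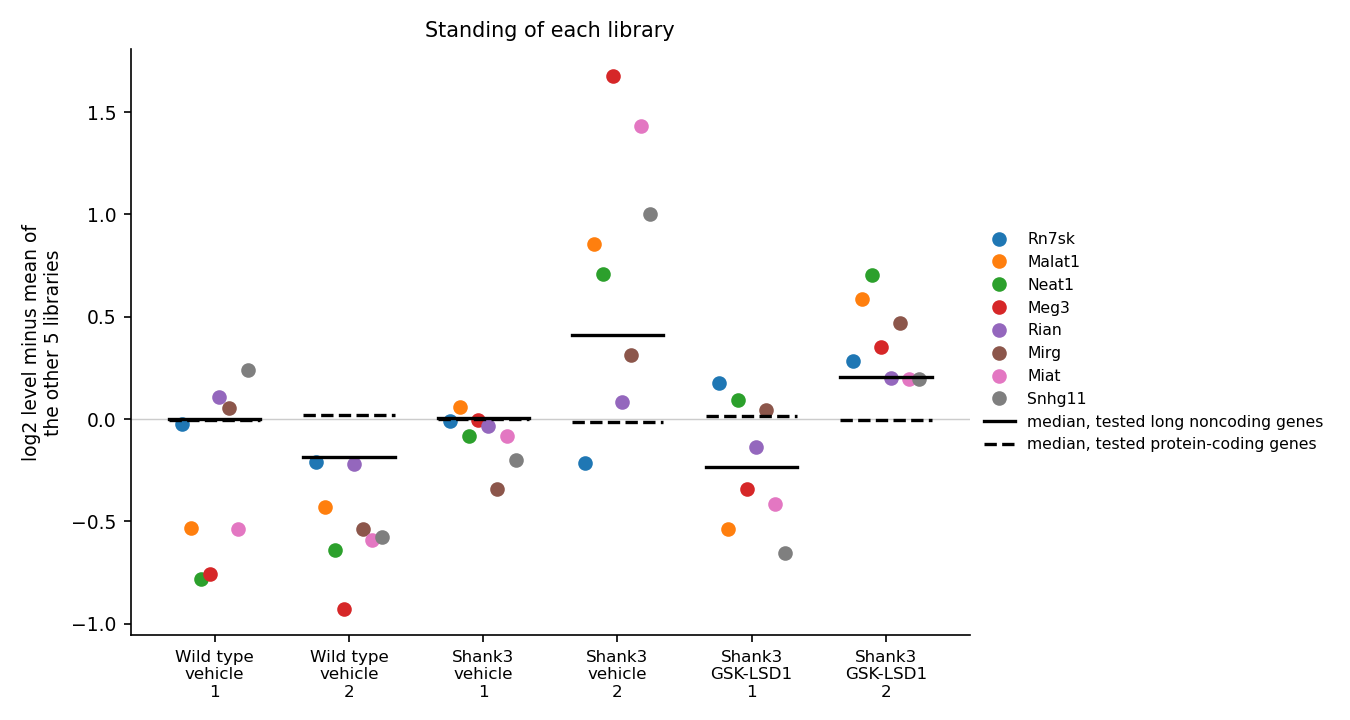
Level of each RNA in each library as the log2 difference from the mean of the other 5 libraries (vertical axis), with a point per RNA and black lines for the median of gene classes. In Shank3 vehicle library 2 Meg3 stands at 1.68, and the median of tested long noncoding genes stands at 0.41.

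The same library was high for long noncoding genes in general. Over the 2427 tested long noncoding genes, the median log2 difference from the other 5 libraries was 0.41 in Shank3 vehicle library 2 and 0.21 in GSK-LSD1 library 2, beside -0.24 to 0.01 in the remaining 4. Of these genes 35.7% had their highest level in Shank3 vehicle library 2 and 23.5% in GSK-LSD1 library 2. The median of the 14301 protein-coding genes stayed within 0.02 of 0 in all 6 libraries. CT010467.1, an entry annotated as ribosomal RNA, read 1122 and 1520.2 CPM in wild type, 2161 and 4094 CPM in Shank3 vehicle, and 1655 and 983 CPM in GSK-LSD1, so it too peaked in Shank3 vehicle library 2. The part of these values in the levels of Malat1, Meg3, Miat, Snhg11 and Neat1 was not tested.

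Markers of some cell types differed in level between groups as well. The summed level of 8 oligodendrocyte markers was 2360 and 2196 CPM in wild type, 5559 and 5602 CPM in Shank3 vehicle, and 2237 and 5226 CPM in GSK-LSD1. Malat1 was also lowest in both wild-type libraries and GSK-LSD1 library 1. Its level differed 1.59-fold within the Shank3 vehicle pair, where the sums were 5559 and 5602 CPM. A link between this sum and Malat1 was not tested. All 8 oligodendrocyte markers had a positive difference in Shank3 vehicle against wild type (median 0.98) and 0 passed (1 at an unadjusted p under 0.05). The sum of 6 astrocyte markers ran from 3294 to 4044 CPM in wild type, 4462 to 4595 CPM in Shank3 vehicle and 4293 to 4387 CPM in GSK-LSD1, with 2, 0 and 3 of 6 rising in the 3 comparisons. The sum of 6 excitatory neuron markers ran from 3941 to 4157 CPM, 3417 to 3442 CPM and 3004 to 3461 CPM in the same order of groups, with 1, 0 and 3 of 6 falling. No marker of these lists was at 0 in any library, and those of excitatory cortical neurons were thus present in all 6. The summed level of 5 erythrocyte markers was 251 and 104 CPM in wild type, 83.7 and 179 CPM in Shank3 vehicle, and 25.4 and 41.7 CPM in GSK-LSD1. It was lowest in the group where Rn7sk was highest. Within wild type and within GSK-LSD1 the library with the higher sum had the higher Rn7sk level, and within Shank3 vehicle the lower. A link between this sum and Rn7sk was not tested. These erythrocyte markers were all tested. All 5 had a negative difference in GSK-LSD1 against wild type (median -2.33) and 0 passed (4 at an unadjusted p under 0.05). Of 6 inhibitory neuron markers 0 passed in any comparison (0 at an unadjusted p under 0.05), with medians of 0.07, 0.01 and -0.04. Of 6 microglia markers 0 passed (2, 2 and 2 at an unadjusted p under 0.05), with medians of 0.20, 0.01 and 0.23. Of 4 endothelium markers 0 passed (0 at an unadjusted p under 0.05), with medians of 0.20, -0.07 and 0.12. The part of cell composition in the levels of the 8 RNAs was not tested. Shank3 itself passed in no comparison (146 to 174 CPM over all libraries), and its count takes in exons outside the deletion.

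For each member the 2 genes with the most similar course over the 6 libraries were picked among 9415 genes, by Pearson's r of log2 CPM. They were Ahi1 (r = 0.995) and S100pbp (0.990) for Rn7sk, Paxbp1 (0.990) and Pttg1ip (0.988) for Malat1, and Hdhd5 (0.990) and Slc17a6 (0.987) for Neat1. For Meg3 they were Epb41l2 (0.990) and Dnm2 (0.985), for Rian Klf3 (0.982) and Trmt1 (0.977), and for Mirg Usp30 (0.993) and Phactr2 (0.988). Miat was most alike to Arglu1 (0.994) and Epb41l2 (0.992), and Snhg11 to Leng8 (0.982) and Chuk (0.978). Epb41l2 appears for both Meg3 and Miat. These are the highest of 9415 values over 6 shared libraries of differing depth, so they describe likeness of course and no more.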

How the data were processed

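The authors deposited 1 table of raw read counts per gene symbol for each of 6 libraries. Per the labels' protocols, libraries were stranded, from ribosome-depleted total RNA. Per the submitters' processing notes, cutadapt, TopHat2, SAMtools, featureCounts and edgeR were used with mm10 (GRCm38). Versions, the annotation release and the strandedness of counting were not given in the sources used here. Genes that overlap may share counts.

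The counts were analysed in R 4.3.3 with edgeR 4.0.16 (filterByExpr, TMM, robust quasi-likelihood fit of 3 groups to all 6 libraries, 3 residual degrees of freedom, two-sided, threshold 0.05), which left 18705 genes. DESeq2 1.42.0 and limma-voom (limma 3.58.1) were alternatives, with other scalings and filters, a replicate block and each library left out. The procedure was checked on simulated counts. Counted reads were 15194848 and 28646960 (wild type), 21734688 and 21488920 (Shank3 vehicle) and 23538125 and 14133834 (GSK-LSD1), where 3 counts, the floor used, equal 0.105 to 0.212 CPM. The 2 libraries of a group were distinct (chi-square of 9.41 to 12.6 for each degree of freedom). An exact permutation of 2 against 2 cannot go below p = 0.333, so none was used. P-values measure the spread between these libraries, and edgeR also draws each gene's spread toward that of other genes. The degrees of freedom with this added were 17.7 for Rn7sk and Rian, 16.7 for Neat1 and 3.28 for Meg3. RPKM and annotation used GENCODE M21 exons. The members, gene lists and tests were chosen with earlier results of these data known. Named genes were the 8 members, 2 most alike genes per member (mean CPM of at least 10, no predicted genes), and list genes that passed or otherwise had the smallest p. Some list genes are not reported here, and the counts and medians of their lists cover the others.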

Additional observations from a re-analysis of the deposited data

How the results depend on the processing

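No member passed with the settings as reported. That count moved in 4 of 14 alternatives in Shank3 vehicle against wild type, in 1 in GSK-LSD1 against Shank3 vehicle, and in 7 in GSK-LSD1 against wild type. In Shank3 vehicle against wild type it was 1 with no filter on low counts and 0 to 2 when single libraries were left out. In GSK-LSD1 against Shank3 vehicle it was 0 to 2 with single libraries left out. In GSK-LSD1 against wild type it was 1 with the members left out of the scaling, 1 with no filter, 1 with DESeq2, and 0 to 2 with single libraries left out. All members called without leaving out a library were Neat1. With the replicate number as a block, 0, 0 and 1 member passed, the 1 being Neat1 in GSK-LSD1 against wild type (0.95, adjusted p = 0.0291), and Srsf7 no longer did (adjusted p = 0.0608). In Shank3 vehicle against wild type the block took the SE of Malat1 from 0.41 to 0.17 (edgeR adjusted p = 0.0549). That of Miat went from 0.54 to 0.35 (adjusted p = 0.321) and that of Snhg11 from 0.54 to 0.59 (adjusted p = 0.855). The numbers share no stated source. Deviations from the group mean correlated at -0.08, -0.07 and 0.16 over all tested genes. With 2 libraries per group this cannot decide whether libraries of the same number share an effect on these RNAs.

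Signs turned where differences were small. In Shank3 vehicle against wild type Rn7sk was -0.00038 with RLE and with DESeq2 and -0.0014 with no filter. With single libraries left out in that comparison, Rn7sk ran from -0.0891 to 0.0864, Rian from -0.0706 to 0.20, Mirg from -0.0897 to 0.46 and Snhg11 from -0.0608 to 0.94. In GSK-LSD1 against Shank3 vehicle Neat1 ran from -0.25 to 0.41, Rian from -0.13 to 0.14, Mirg from -0.0383 to 0.50, Malat1 from -0.86 to 0.0698, Meg3 from -1.36 to 0.0295 and Snhg11 from -0.98 to 0.0126. In GSK-LSD1 against wild type Snhg11 was 0.0435 with library size alone and ran from -0.43 to 0.33, Rian from -0.0711 to 0.21 and Malat1 from -0.0453 to 0.88. Miat's mean share in wild type was 0.00279% of reads apart from the members, beside 0.00270% of all reads. The cause of these shifts was not tested, save that leaving out a library leaves fewer samples.

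Over all genes, 238 passed in Shank3 vehicle against wild type, beside 35 with library size alone, 807 with no filter, 602 with DESeq2 and 6 to 656 with single libraries left out. For GSK-LSD1 against Shank3 vehicle 20 passed, beside 106 with no filter, 35 with DESeq2 and 10 to 83 with single libraries left out. For GSK-LSD1 against wild type 491 passed, beside 253 with library size alone, 962 with no filter, 782 with DESeq2 and 6 to 631. Counting error was largest for Neat1, the member with the fewest reads (74 to 267 per library), and the part of depth in its results was not tested.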
